A study of Caenorhabditis elegans with 12 samples.

Results

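The glutathione S-transferase (GST) genes of Caenorhabditis elegans were followed in dissected adult germ lines of worms mutant for mes-2, for mes-4 or for both, genes of a pair of chromatin regulators. The family was taken as every gene whose symbol began with gst-, gsto- or gstk- in the annotation of the array, which gave 46 genes of 16378 named on the array, represented by 52 probes. Testing a gene required values from 3 or more of the 4 arrays of each group, and 35 of the 46 members passed, among 12887 genes tested in all. Of the 35, 29 had a value on all 12 arrays.

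RNA came from germ lines dissected from adult worms grown at 20 °C, and each two-colour array carried 1 mutant and 1 wild-type sample, harvested independently. The 3 groups, of 4 arrays each, were mes-2 mutants (strain SS0186) against unc-4(e120), mes-4 mutants (strain SS0803) against N2, and mes-2; mes-4 double mutants (strain SS0965) against unc-4(e120). Germ lines of wild type and of both single mutants came from adults that held few or no fertilized embryos, whereas those of the double mutant were selected as well proliferated and with oocytes, so the double mutant stands for a selected part of its germ lines. The labels name the strains and no mes allele, and they do not say whether pools of worms were used, so whether either enzyme was fully absent is not given in the sources used here. Dyes were balanced, with the mutant labelled in Cy5 on replicates 1 and 3 of mes-2, 3 and 4 of mes-4 and 2 and 4 of the double mutant, and in Cy3 on the others. MES-2 is the Polycomb-group histone methyltransferase of the worm, and MES-4 is a histone methyltransferase that marks genes expressed in the germ line. All values are log2 ratios of mutant over wild type, in which base and direction were read from the values and the channel order because the labels state neither. The mes-2 probe stood at -2.80 (SE 0.20, n = 4, limma adjusted p = 2.2e-05) in mes-2 and at -2.49 (SE 0.20, n = 4, adjusted p = 1.5e-05) in the double mutant, and the mes-4 probe at 0.63 (SE 0.24, adjusted p = 0.227) in mes-4, so it did not check that label. Arrays had a value for 17297 to 21879 of 22490 probes. Precision is limited by the number of arrays, as array values carry no depth.

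Glutathione S-transferases join the tripeptide glutathione to reactive or foreign molecules, and some also reduce lipid peroxides, so they count as enzymes of the second phase of detoxification. In the worm most members lie in a large nematode expansion, and smaller classes (omega, zeta and kappa) have relatives in mammals. Many gst genes are transcribed in the intestine and other somatic tissues under the stress factor SKN-1, which the p38 kinase PMK-1 and its activator SEK-1 switch on.

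Against wild type the median member stayed close to 0 in each mutant, and 11 of the 35 tested members passed the threshold in at least 1 mutant. The share of all genes that did so was not counted, so that total has no base rate beside it. In mes-2, 3 members rose and 1 fell, against 3.94% of all genes called higher and 1.3% called lower. In mes-4, 0 rose and 4 fell, against 2.52% and 1.39% of all genes. In the double mutant 6 rose and 1 fell, against 9.62% and 6.25%. As a share of the 35 members, 11.4%, 11.4% and 20% were called in mes-2, mes-4 and the double mutant, beside 5.25%, 3.91% and 15.9% of all genes. The median member stood at 0.09, -0.06 and 0.05 on the log2 scale, while the median of all genes lay at -0.0025, -0.0025 and 0.005. At an unadjusted p under 0.05 the counts were 9, 8 and 8 members. The share of all genes at that level was not counted for any comparison. Between the single mutants the family lay mostly on 1 side: in mes-4 minus mes-2 its median was -0.34 against 0.0025 for all genes, 7 of 35 members were above 0, and 14 had an unadjusted p under 0.05, although 2 were called. In that comparison the median of 18 intestinal marker genes was -0.82. Medians of the other marker lists ran from -0.36 (sperm) to 0.09 (gonadal sheath and spermatheca). The part of intestinal RNA in the family's shift was not tested, and members alike in sequence are not independent readings. The wild-type strains differ in that comparison. The plot of every member's estimate shows the spread of single genes against wild type.

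**Figure D1:**
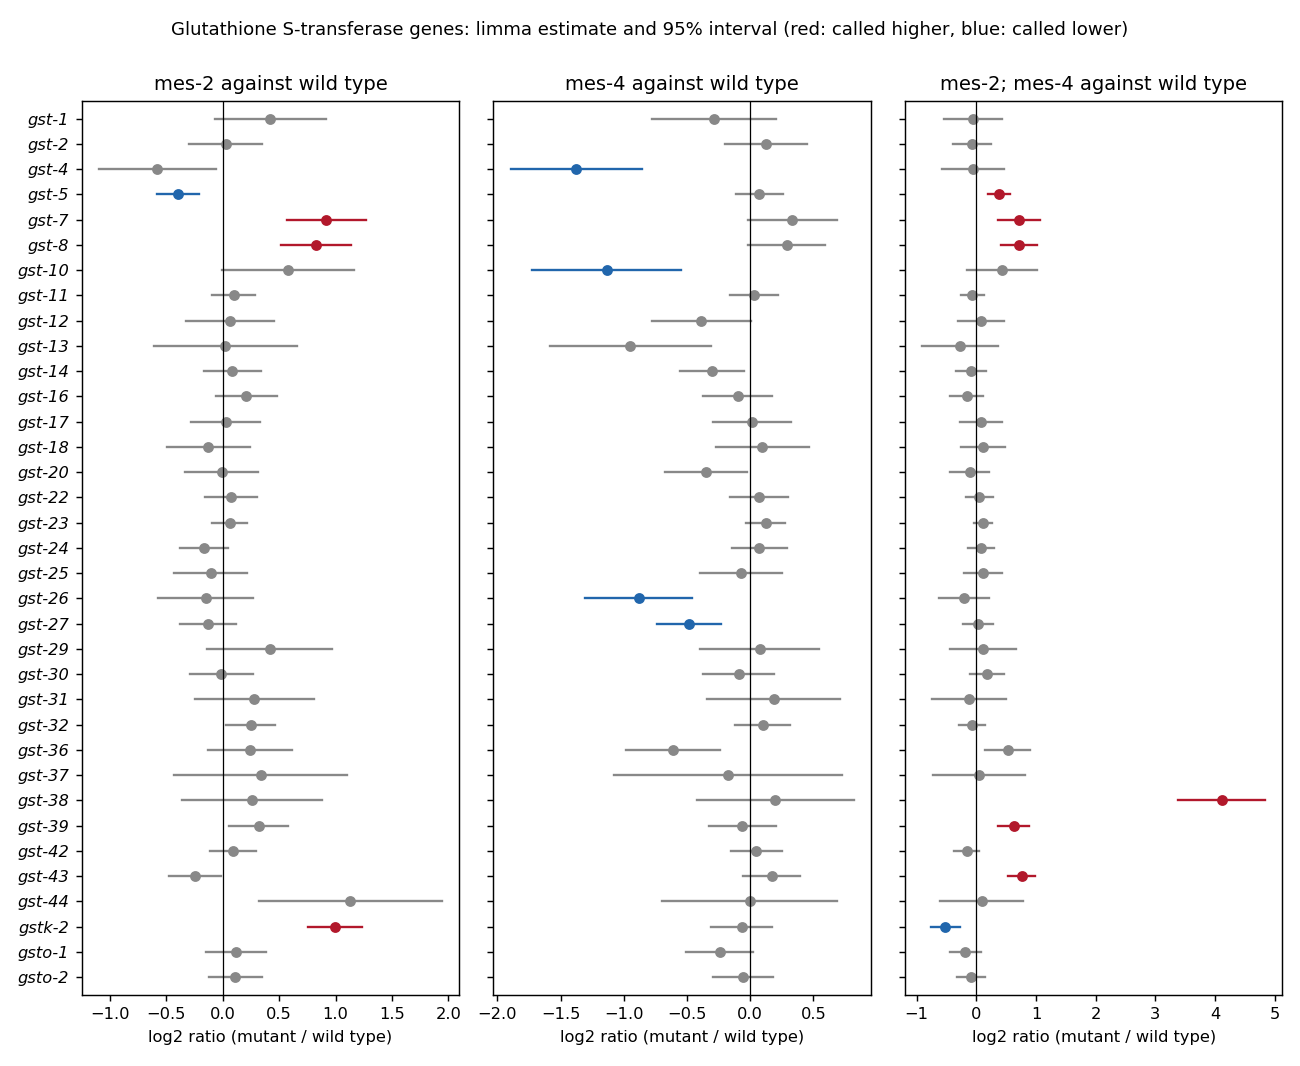
Log2 ratio of mutant over wild type (x axis, with a scale of its own in each panel) for the 35 tested GST genes (y axis) in the 3 mutants; points are limma estimates from the joint fit of 12 arrays, bars are 95% intervals, red marks genes called higher and blue genes called lower at an adjusted p under 0.05. Most intervals hold 0, the calls in mes-4 are all on the low side, and gst-38 in the double mutant stands apart at 4.11.

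In mes-2 germ lines the genes that rose were gstk-2, gst-7 and gst-8, each by slightly less than 1 log2 unit, and gst-5 was the gene that fell. gstk-2 encodes a kappa-class enzyme, a class that in animals works in mitochondria and peroxisomes, and it stood at 0.82, 1.4, 0.87 and 0.89 on the 4 mes-2 arrays. All 4 lay far above 0 and the estimate was 0.995 (SE 0.11, n = 4, limma adjusted p = 4.1e-04), a 1.99-fold rise. gst-7 had 0.99, 0.76, 1.0 and 0.92, and its neighbour gst-8, which lies next to it on chromosome II, had 0.77, 0.60, 1.23 and 0.71. Their rises were 0.92 (SE 0.16, n = 4, adjusted p = 0.00637) and 0.83 (SE 0.14, n = 4, adjusted p = 0.0055), with every array above 0 in either dye. gst-8 is among the GSTs reported to act on the lipid peroxidation product 4-hydroxynonenal. The 2 probes of gst-7 differed by at most 0.30 on any array and those of gst-8 by at most 0.50. The gene averages of gst-7 and gst-8 differed from each other by at most 0.225 over the 12 arrays, so probes of these adjacent relatives tracked each other and cross-hybridisation between them was not tested. These 3 rises were called in all 23 other settings tried. In mes-2, 1 of 18 intestinal marker genes (pept-1, 0.95, SE 0.12) also rose, while the list median was -0.01. Of 6 neuronal genes 2 rose (unc-31, 2.90, SE 0.22, and ric-19, 1.95, SE 0.20), with a list median of 0.14. No marker of a somatic tissue fell. Over all genes 3.94% rose and 1.3% fell in mes-2. The part of these marker genes in the GST values was not tested.

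gst-5, also reported to act on 4-hydroxynonenal, had -0.23, -0.48, -0.58 and -0.29 on the mes-2 arrays. It was below 0 on each, with an estimate of -0.395 (SE 0.08, n = 4, adjusted p = 0.0203), a 1.31-fold fall. Without mes-2 replicate 2 the estimate was -0.37 (adjusted p = 0.11) and without mes-2 replicate 3 it was -0.32 (adjusted p = 0.114), so the call rested on both arrays. gst-44 had the highest estimate of all members in mes-2, at 1.13 (SE 0.36, n = 3, adjusted p = 0.129). Its 3 measured arrays held 0.54, 0.50 and 2.18, a spread set by replicate 4.

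In mes-4 germ lines gst-4, gst-10, gst-26 and gst-27 fell and no member rose. gst-4, a nematode GST widely used as a readout of SKN-1 activity, had -1.73 and -1.60 when the mutant was labelled with Cy3 (replicates 1 and 2) and -1.01 and -1.17 when it was labelled with Cy5 (replicates 3 and 4). It was below -1 on every mes-4 array, and its estimate of -1.38 (SE 0.23, n = 4, limma adjusted p = 0.00729) is a 2.6-fold fall. Without mes-4 replicate 4 the estimate was -1.30 with an adjusted p of 0.0527. gst-10, whose enzyme conjugates 4-hydroxynonenal, had -1.57 and -1.52 in Cy3 and -0.72 and -0.73 in Cy5. The order of the dyes was the same for both genes, with the deeper falls on the Cy3 arrays. gst-10 had an estimate of -1.14 (SE 0.27, n = 4, adjusted p = 0.0399). The call was lost in 10 of 12 fits that left out 1 array: any of the mes-2 or mes-4 arrays, or double mutant replicate 2 or 4. In those fits the estimate ran from -1.22 to -1.04 and the adjusted p from 0.0549 to 0.212.

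gst-26 and gst-27 are adjacent genes on chromosome II, and both fell less. gst-26 had -1.08, -1.69, -0.29 and -0.47 on mes-4 replicates 1 to 4, and an estimate of -0.88 (SE 0.19, n = 4, adjusted p = 0.0279). gst-27 had -0.91, -0.78, -0.06 and -0.19, and an estimate of -0.485 (SE 0.11, n = 4, adjusted p = 0.0396). Replicates 1 and 2, with mutant RNA in Cy3, carried most of either fall, and replicates 3 and 4 lay near 0 for gst-27. The gst-26 call was lost without any 1 of the 4 mes-4 arrays (estimates -0.96 to -0.72, adjusted p 0.0655 to 0.178). The gst-27 call was lost without any mes-2 or mes-4 array or double mutant replicate 4 (estimates -0.54 to -0.43, adjusted p 0.0573 to 0.225). Without the dye term gst-4 alone of these genes was called, and gst-26 and gst-27 had adjusted p of 0.144 and 0.336. The 2 probes of gst-26 differed by a median of 0.20 and by as much as 1.64 on 1 array, double mutant replicate 1. On mes-4 replicates 1 to 4 they had -0.98, -1.67, -0.18 and -0.40 against -1.18, -1.70, -0.40 and -0.54. The count of 4 was 1 without mes-4 replicate 1, 2 or 3, 0 without mes-4 replicate 4, and 2 without mes-2 replicate 1, 2 or 4 or double mutant replicate 4. gst-13 had -1.13, -1.76, -0.57 and -0.33, an estimate of -0.95 (SE 0.29, adjusted p = 0.111) that was not called. It passed when the mes-4 arrays alone were fitted (adjusted p = 0.0356) and with arrays scaled to equal spread (0.0327). It also passed without double mutant replicate 1 (0.0399), replicate 3 (0.0142), or replicates 2 and 3 together (0.00925).

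Genes of the intestine, the tissue that lies beside the gonad and that is known for strong gst expression, were also on the low side in mes-4. Their list median there was -0.80. The other somatic lists had medians of 0.005 (hypodermis and cuticle), -0.16 (body wall muscle), 0.0 (gonadal sheath and spermatheca) and 0.22 (neurons). All 18 of 18 intestinal marker genes tested had an estimate below 0 in mes-4, from -1.16 to -0.06, although 0 of the 18 were called (lowest limma adjusted p = 0.0746, 11 at an unadjusted p under 0.05). The 22 genes listed before the value filter include vit-1 to vit-6, members of a gene family, so the list does not give fully independent readings. The median of the intestinal list was -1.28 and -1.33 on mes-4 replicates 1 and 2 (Cy3) and -0.21 and -0.195 on replicates 3 and 4 (Cy5). Levels cannot be read from ratios, so it is not known which of these genes were at background, and fewer cells of a type cannot be told apart from less RNA per cell. gst-4 and gst-10 were lower than that median on all 4 mes-4 arrays. gst-27 was higher than it on all 4. In mes-2 and in the double mutant the intestinal median ran from -0.49 to 0.165 and from -0.19 to 0.355. The part of intestinal RNA in the mes-4 falls was not tested. The wild type differed as well: the mes-4 arrays alone used N2.

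**Figure D2:**
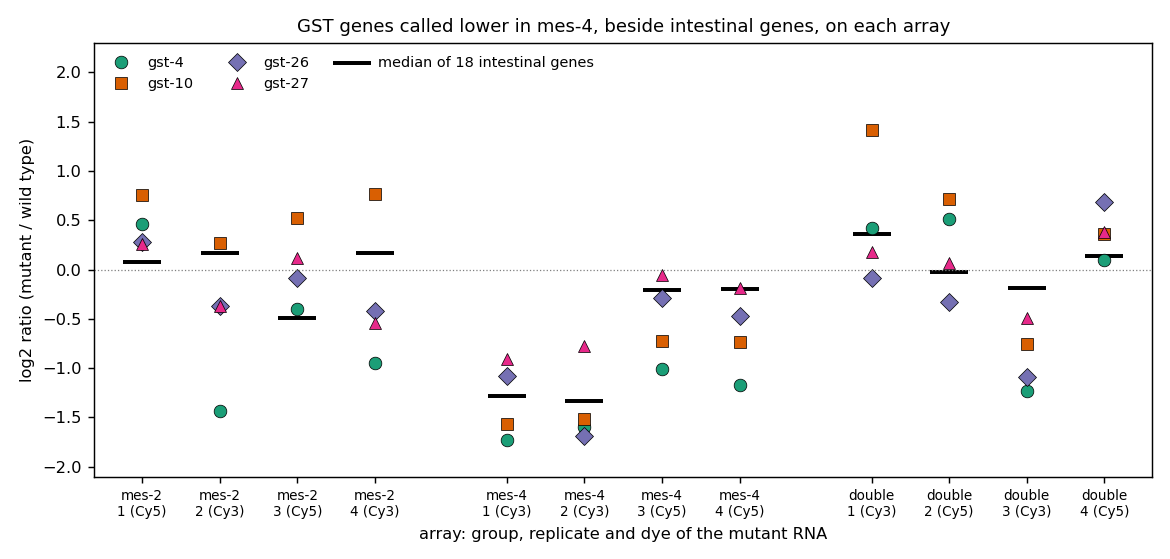
Log2 ratio of mutant over wild type (y axis) on each of the 12 arrays (x axis, with group, replicate and dye of the mutant RNA) for the 4 GST genes that fell in mes-4 (coloured points) and the median of 18 intestinal genes (black dashes). On mes-4 replicates 1 and 2 the points and the dashes are low together, and on replicates 3 and 4 gst-4 (-1.01 and -1.17) and gst-10 (-0.72 and -0.73) lie below dashes at -0.21 and -0.195.

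In the double mutant gst-38 rose far more than any other member, and gst-43, gst-8, gst-7, gst-39 and gst-5 rose moderately, while gstk-2 fell. gst-38, on chromosome V, had 3.45, 4.70 and 4.06 on replicates 1, 2 and 4 and no value on replicate 3. Its estimate of 4.11 (SE 0.33, n = 3, limma adjusted p = 2.7e-05) is a 17.3-fold rise. In mes-2 it had -0.14, 0.82, 0.56 and -0.19 and in mes-4 0.60, 0.94, -0.20 and -0.55, so the double mutant did not overlap with either. The single mutants had estimates of 0.26 (95% interval -0.36 to 0.88) and 0.20 (-0.42 to 0.82), which leave room for a rise of under 1 log2 unit. gst-38 was called in the double mutant in each of the 22 other settings that tested it.

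gst-43 encodes a zeta-class enzyme, related to the maleylacetoacetate isomerase of tyrosine breakdown. It had 0.84, 0.66, 0.64 and 0.90 in the double mutant, a narrow range above 0, and rose by 0.76 (SE 0.10, n = 4, adjusted p = 5.4e-04). gst-39, in the same run of chromosome II genes as gst-26 and gst-27, had 0.81, 0.29, 0.45 and 0.95 and rose by 0.625 (SE 0.12, n = 4, adjusted p = 0.00466). gst-5 had 0.46, 0.34, 0.32 and 0.37, the tightest of the called genes, and rose by 0.37 (SE 0.08, n = 4, adjusted p = 0.0113). Without the arrays double 1, double 4 and mes-4 3, set apart in an earlier analysis of these data, gst-5 stood at 0.33 (adjusted p = 0.0811).

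gst-7 and gst-8 had 0.96, 0.66, -0.01 and 1.25, and 0.87, 0.745, 0.16 and 1.09, on replicates 1 to 4 of the double mutant. Replicate 3 was the low array for both. They rose by 0.71 (SE 0.16, n = 4, adjusted p = 0.0107) and 0.72 (SE 0.14, n = 4, adjusted p = 0.00494). The gst-7 call was lost without double mutant replicate 1 (0.54, adjusted p = 0.0542) and without replicate 4 (0.60, adjusted p = 0.0715), and without the 3 arrays set apart gst-7 stood at 0.32 (adjusted p = 0.107). gstk-2 had -0.65, -0.33, -0.29 and -0.82, all below 0, and fell to -0.52 (SE 0.11, n = 4, adjusted p = 0.00794). Without replicate 4 it had -0.44 (adjusted p = 0.0561), and without the 3 arrays set apart -0.31 (adjusted p = 0.144).

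A fit restricted to the 4 double mutant arrays called 1 member, gst-38, while gst-43 had an adjusted p of 0.0824 and gst-39 one of 0.184 there. Without double 1, double 4 and mes-4 3 the count was again 7 but with 4 higher and 3 lower, and gst-1 (-0.61), gst-20 (-0.475) and gst-26 (-0.71) were the lower genes. Of 8 germline marker genes tested, 6 fell in the double mutant, where 6.25% of all genes fell. The median of the 8 was -0.885, -0.29, -0.655 and -0.535 on the 4 double mutant arrays. In mes-2 and mes-4 the same median ran from -0.29 to 0.135 and from -0.48 to 0.085. Of 11 oocyte genes 1 fell in the double mutant, with a list median of -0.025 there. Of 9 sperm genes 3 fell (among them spe-15, -1.40, SE 0.16) and 1 rose in the double mutant, 2 rose in mes-2 (spe-15, 0.75, and fog-3, 0.72) and 2 fell in mes-4 (spe-15, -1.0, and spe-44, -0.53). Of 6 neuronal genes 3 rose in the double mutant (ric-19, 1.18, unc-31, 0.84, and snb-1, 0.78). Over all genes 9.62% rose and 6.25% fell in the double mutant, 3.94% rose in mes-2 and 1.39% fell in mes-4. The sperm list had medians of 0.09, -0.19 and -0.29 in mes-2, mes-4 and the double mutant. The neuronal list median was 0.51 in the double mutant. The part of these markers in the GST values was not tested.

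The differences between mutants were tested directly in the same fit, and gstk-2 and gst-38 were each called in 3 of the 4 comparisons. gstk-2 was lower in the double mutant than in mes-2 by a log2 difference of -1.52 (SE 0.16, 4 against 4 arrays, limma adjusted p = 3.4e-04), lower in mes-4 than in mes-2 at -1.06 (SE 0.16, adjusted p = 0.00618), and below the sum of the single mutants at -1.45 (SE 0.19, adjusted p = 0.00577). The highest double mutant array of gstk-2 stood at -0.29 and the lowest mes-2 array at 0.82, so mes-2 and double mutant, which share their wild-type strain, pointed in opposite directions without overlap. gst-38 was higher in the double mutant than in mes-2 by 3.85 (SE 0.43, 3 against 4 arrays, adjusted p = 7.7e-04), than in mes-4 by 3.91 (SE 0.43, adjusted p = 0.0026), and above the sum of the single mutants by 3.65 (SE 0.51, adjusted p = 0.0106).

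gst-5 and gst-43 also differed between the double mutant and mes-2, by 0.77 (SE 0.12, adjusted p = 0.00377) and 1.01 (SE 0.15, adjusted p = 0.00257). For gst-5 this joins a fall in mes-2 with a rise in the double mutant. gst-5 passed against the sum of the single mutants as well (0.695, SE 0.14, adjusted p = 0.0485), but in none of the 12 fits without 1 array (0.62 to 0.75, adjusted p 0.0623 to 0.15). gst-10 was lower in mes-4 than in mes-2 by a difference of -1.72 (SE 0.38, adjusted p = 0.0472), which held in 2 of 12 fits without 1 array and was lost in those without any mes-2 or mes-4 array or double mutant replicate 2 or 4 (adjusted p 0.0678 to 0.16). gst-36, on the X chromosome, had -1.21, -0.65, -0.27 and -0.32 in mes-4 and 0.64, 0.57, 0.21 and 0.68 in the double mutant. It was called only as the difference of the 2, 1.14 (SE 0.24, adjusted p = 0.0406), and lost that call in 11 of 12 fits without 1 array (0.94 to 1.24, adjusted p 0.0506 to 0.133), the exception being the fit without mes-2 replicate 3. Differences that involve mes-4 also set N2 against unc-4(e120) as wild type.

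In the double mutant minus mes-2, 3 of the 35 members were higher and 1 lower, against 3.57% and 2.62% of all genes (6.19% called). In the double mutant minus mes-4, 2 were higher and 0 lower, against 1.46% and 0.318% (1.78% called). In mes-4 minus mes-2, 0 were higher and 2 lower, against 0.652% and 1.3% (1.96% called). The departure from the sum was called above 0 for 2 members and below 0 for 1, against 0.683% and 0.551% of all genes (1.23% called). For gst-7 and gst-8 the double mutant minus mes-2 gave -0.205 (95% interval -0.70 to 0.29) and -0.11 (-0.54 to 0.32), intervals that hold no difference and a difference of about 0.5 alike. For gst-4 the double mutant minus mes-4 was 1.33 (SE 0.33, adjusted p = 0.0809) and the departure from the sum was 1.91 (SE 0.41, adjusted p = 0.0534), neither called. The departure of gst-43 was 0.84 (SE 0.18, adjusted p = 0.0534), not called either. Both lie at the threshold. gst-4 passed with values on all 12 arrays, with arrays scaled or centred, and without mes-2 replicate 1 or double mutant replicate 1 or 3. It passed as well without double mutant replicates 2 and 3 together (adjusted p 0.0191 to 0.0487 over these fits). gst-43 passed with values on all 12 arrays, with arrays centred, and without double mutant replicate 2 or replicates 2 and 3 together (adjusted p 0.027 to 0.0463).

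**Figure D3:**
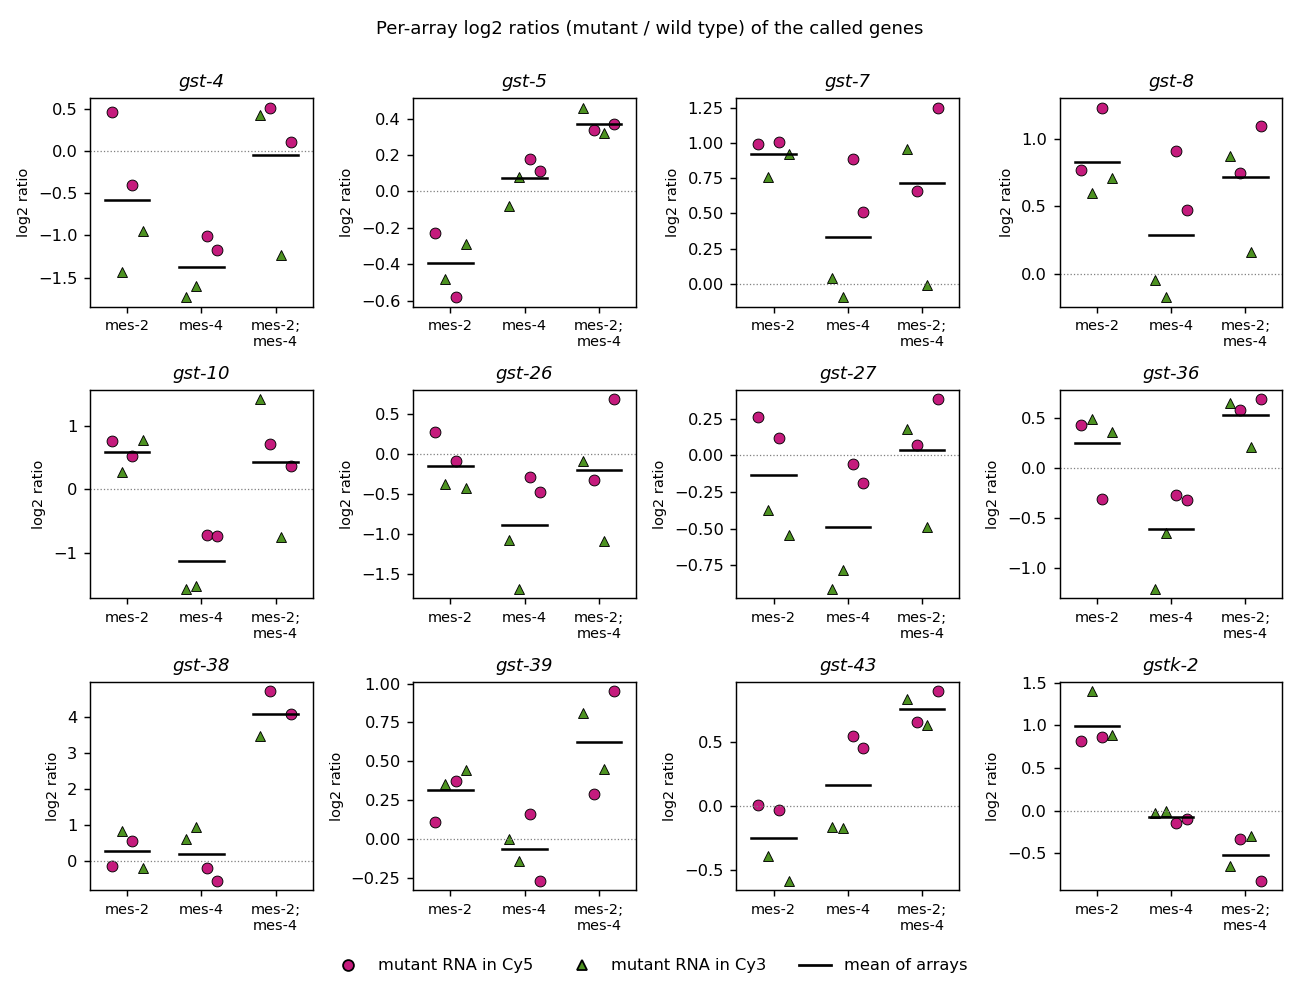
Log2 ratio of mutant over wild type (y axis, with a scale of its own in each panel) on every array of the 3 groups (x axis) for the 12 GST genes called in any of 7 comparisons; circles mark mutant RNA in Cy5, triangles mark Cy3, and bars are means of the arrays. gst-38 lies between 3.45 and 4.70 in the double mutant, and gstk-2 runs from 0.82 to 1.4 in mes-2 and from -0.82 to -0.29 in the double mutant.

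The remaining 23 tested members were called in none of the 7 comparisons of the joint fit. Their estimates ran from -0.17 (gst-24) to 1.13 (gst-44) in mes-2, from -0.95 (gst-13) to 0.19 (gst-31) in mes-4, and from -0.27 (gst-13) to 0.18 (gst-30) in the double mutant. The genes with omega-class names, gsto-1 and gsto-2, stayed within 0.24 of 0 in every mutant. In mes-2, mes-4 and the double mutant gsto-1 had 0.12, -0.24 and -0.18, and gsto-2 had 0.11, -0.06 and -0.09. Classes were not checked by sequence here, so these values do not speak for omega-class members under other names. The 95% interval of gsto-2 reached from -0.32 to 0.15 in the double mutant. gst-42, the other zeta-class gene, had 0.09, 0.05 and -0.16, with per-array values from -0.30 to 0.44 over all groups, so the rise of gst-43 in the double mutant was not matched by a call in its relative; the 2 were not tested against each other. gst-1, a GST reported to protect dopamine neurons, had -0.47, -0.63, 0.35 and -0.40 in mes-4 and 0.45, -0.24, -0.98 and 0.56 in the double mutant. Its estimates were 0.42 (SE 0.22, adjusted p = 0.392), -0.29 and -0.05, with arrays on both sides of 0 in each of the last 2 groups.

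Of the 46 genes 24 lie on chromosome II, 9 on V, 5 on IV, 3 on III, 3 on X and 1 on I, and gst-25 was not matched to a chromosome. The members on chromosome II include runs of near neighbours whose values differed between runs. The run gst-20, gst-24, gst-15, gst-14, gst-12, gst-16, gst-19, gst-17 and gst-18 holds 9 consecutive protein-coding genes, and none of its 7 tested members was called in any mutant, with estimates from -0.39 to 0.21. The run from gst-26 to gst-35 holds 8 members within 10 consecutive protein-coding genes, of which 6 were tested. In it gst-26 and gst-27 fell in mes-4 and gst-39 rose in the double mutant, while gst-29, gst-31 and gst-32 stayed uncalled. In the run of gst-6, gst-7 and gst-8, both tested members rose in mes-2 and in the double mutant. On chromosome IV, gst-4 fell in mes-4 while its neighbour gst-2 had 0.06, -0.09, 0.23 and 0.30 there. Similarity in sequence within a run was not checked here, so its members cannot be taken as independent readings.

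The dye term was past the threshold for 15 of 35 members (42.9%, against 32% of all genes). gst-22 had the steepest one of these, at -0.997 (SE 0.12, adjusted p = 5.0e-04), with -0.36 and -0.77 in Cy5 against 0.67 and 0.76 in Cy3 on the mes-2 arrays. On those arrays gst-22 crossed 0 with the dye, and it had estimates of 0.08, 0.07 and 0.05 in the 3 mutants. Of the 12 members called in any comparison, gst-4, gst-8, gst-26, gst-27 and gst-43 had a called dye term (adjusted p 0.0376, 0.0319, 0.0257, 0.008 and 0.0283), and 3 of these are among the 4 genes that fell in mes-4. gst-5, gst-7, gst-10, gst-36, gst-38, gst-39 and gstk-2 did not pass the threshold for it.

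The 11 members outside the test were gst-3, gst-6, gst-15, gst-19, gst-21, gst-28, gst-33, gst-35, gst-40, gst-41 and gstk-1, which had too few values, for reasons that the labels do not give. gstk-1, the other kappa-class gene, had 2.90 and 4.26 on mes-2 replicates 1 and 3, both with mutant RNA in Cy5, and no value elsewhere. gst-28 had 4.24 and 0.90 on 2 mes-2 arrays and -1.90, -1.99 and -0.52 on 3 mes-4 arrays. gst-6, the neighbour of gst-7, had -1.29, -2.0 and -1.74 on 3 mes-4 arrays and none elsewhere. gst-33 ran from -2.25 to 2.38 within mes-2 and gst-21 from -0.34 to 0.99. These values are a description without a test.

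Genes that make, recycle or accompany glutathione were counted from lists of related functions. None of 18 genes of glutathione synthesis and reduction (the makers gcs-1 and gss-1, the reductase gsr-1, glutaredoxins and glutathione peroxidases) was called in any of the 3 mutants, with list medians of 0.02, 0.01 and 0.07. Of 17 thioredoxin and peroxidase antioxidants, 1 rose in mes-2, 3 fell in mes-4, and 1 rose and 3 fell in the double mutant. Over all genes 3.94% rose in mes-2, 1.39% fell in mes-4, and 9.62% rose and 6.25% fell in the double mutant, the shares against which these and the next lists are to be read, with 2.52% that rose in mes-4. The gene that rose was msra-1, a methionine sulfoxide reductase, at 1.15 (SE 0.14, n = 4, limma adjusted p = 6.2e-04) in mes-2 and 2.18 (SE 0.14, n = 4, adjusted p = 2.9e-06) in the double mutant. Those that fell in mes-4 were the catalases ctl-1 (-0.78, SE 0.08, adjusted p = 3.9e-04) and ctl-3 (-0.68, SE 0.09, adjusted p = 0.00167), whose sequences are alike, and the thioredoxin reductase trxr-2 (-0.66, SE 0.09, adjusted p = 0.00219). With 1 probe per gene ctl-3 had -0.09 in mes-4 (adjusted p = 0.854) and -0.07 in the double mutant (adjusted p = 0.762), so its calls rested on another of its probes. In the double mutant ctl-1 had -0.355 (SE 0.08, adjusted p = 0.01285), ctl-3 had -0.38 and trxr-2 -0.395. The calls of ctl-3 and trxr-2 were lost without replicate 1 or 4 (ctl-3 -0.33 to -0.29, trxr-2 -0.39 to -0.33, adjusted p 0.0589 to 0.0845 over the 4 fits). The ctl-1 call in the double mutant was not followed in fits without 1 array.

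Of 13 regulators of the SKN-1 pathway, 1 rose in mes-2, 1 in mes-4 and 2 in the double mutant, and none fell. pmk-1, the p38 kinase gene, rose by 1.20 (SE 0.14, adjusted p = 6.6e-04) in mes-2. sek-1, the kinase gene upstream of it and located on X, rose by 1.32 (SE 0.21, adjusted p = 0.0046) in mes-4 and by 1.74 (SE 0.21, adjusted p = 2.4e-04) in the double mutant. The last call was lost in a fit of the double mutant arrays alone (adjusted p 0.07955). pmk-1 had 0.58 (adjusted p = 0.018) in the double mutant and lost the call without replicate 3 or 4 (0.49 to 0.62, adjusted p 0.0542 to 0.0791). gst-4, the usual readout of this pathway, stood at -0.58, -1.38 and -0.05 in mes-2, mes-4 and the double mutant, of which the mes-4 value was called. Kinase activity was not measured.

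Calls in other families of detoxification were counted in the same way. Of 40 UDP-glucuronosyltransferase genes, which attach sugars to foreign molecules, 6 rose in mes-2, 1 in mes-4 and 2 in the double mutant, where 1 fell. The mes-2 count was 3 without mes-2 replicate 2 or 3, in a fit of the mes-2 arrays alone and with values on all 12 arrays, and the double mutant count of 3 was 5 without its replicate 1, 1 without its replicate 4 and 0 in a fit of its own arrays. The gene ugt-64 rose in each, by 1.27, 1.43 and 1.31 (SE 0.15 each), and ugt-61 and ugt-45 rose in mes-2 by 1.27 (SE 0.14) and 1.03 (SE 0.10). The other calls in the double mutant were ugt-37 (0.75, SE 0.18), lost without replicate 2, 3 or 4 (0.56 to 0.79, adjusted p 0.0538 to 0.085), and ugt-66 (-0.395, SE 0.10), lost without replicate 1 or 4 (-0.33 to -0.32, adjusted p 0.0784 to 0.106). Of 47 cytochrome P450 genes, which oxidise such molecules in the first phase, 1 rose in mes-2, 1 fell in mes-4 and 3 rose in the double mutant. In mes-2 cyp-13B2 had 1.51 (SE 0.32), a call lost without any 1 mes-2 array (1.46 to 1.59, adjusted p 0.0614 to 0.0953). In mes-4 cyp-33E1 had -0.45 (SE 0.10), lost without any mes-4 array or double mutant replicate 4 (-0.52 to -0.39, adjusted p 0.0507 to 0.206). cyp-37A1 had 0.60 (SE 0.16) in the double mutant, lost without replicate 2, 3 or 4 (0.38 to 0.65, adjusted p 0.0535 to 0.124). cyp-33C8 rose by 1.55 (SE 0.14, adjusted p = 3.5e-05) and cyp-13B2 by 1.97 (SE 0.32, adjusted p = 0.00178) in the double mutant. In a fit of the double mutant arrays alone neither was called (adjusted p 0.0578 and 0.1336). Of 12 exporters of the mrp and pgp families, pgp-4 on X rose in mes-4 (1.73, SE 0.28, adjusted p = 0.00957), and in the double mutant mrp-8 rose by 2.21 (SE 0.34), pgp-5 had 0.92 (SE 0.25) and mrp-7 fell to -1.39 (SE 0.21). The pgp-4 call was lost without mes-4 replicate 1 or 2 (1.55 to 1.59, adjusted p 0.0679 to 0.0755), and the pgp-5 call without double mutant replicate 2, 3 or 4 (0.80 to 0.89, adjusted p 0.0873 to 0.141). The calls of mrp-8 and mrp-7 were lost in a fit of the double mutant arrays alone (adjusted p 0.1025 and 0.1124).

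**Figure D4:**
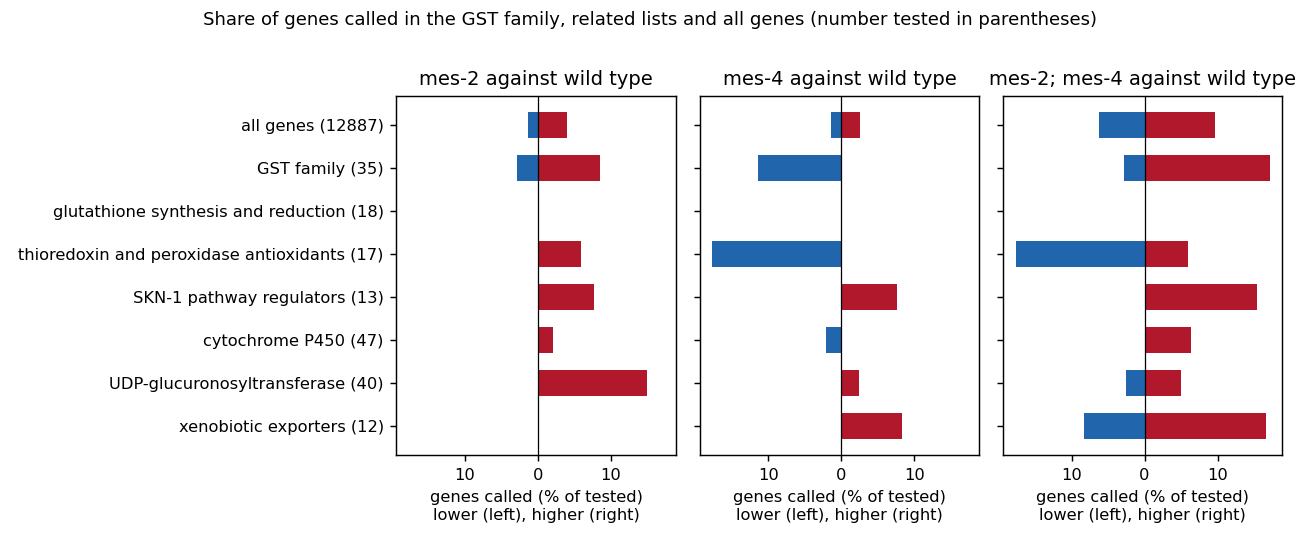
Share of tested genes called (x axis, percent, lower to the left in blue and higher to the right in red) for all genes, the GST family and 6 lists of related function (y axis, with the number of genes tested) in the 3 mutants. The 35 GST genes have calls to the left alone in mes-4, where 4 fell, and the 18 genes of glutathione synthesis and reduction have no bar in any panel.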

How the data were processed

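Per the labels' protocols, Trizol-extracted RNA was amplified from its poly-A fraction before Cy3 or Cy5 labelling. For each probe and array the authors deposited a log ratio, used here as a log2 value; log base, normalization, spot filter and direction of the ratio are not given in the sources used here. Of 22490 probes, 17461 named 1 gene in the platform annotation, 0 named several and 5029 named none. Probes of a gene were averaged per array. A RefSeq gene table of assembly WBcel235 gave chromosomes and gene order only and matched 45 of the 46 members.

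A joint limma 3.58.1 fit (R 4.3.3) of the 12 arrays had 1 mean for each mutant plus a dye term. The 7 comparisons were each parametrised as a coefficient, which is exact with missing values. Two-sided tests were used, with Benjamini-Hochberg adjustment over 12887 genes and a threshold of 0.05. Errors are limma standard errors (SE). The procedure was tested on simulated data. GST genes called in any comparison are named, as are up to 3 called genes per related list. Named whatever their result were gst-1, gst-4, gst-10, gsto-1, gsto-2, gstk-1, gstk-2, gst-42 and gst-43. gst-2, gst-13, gst-22 and gst-44, the extremes of a range and examples outside the test were added with their values in view. The members, lists and settings were chosen with earlier results of these data known. Replicates were harvested independently, per the series' design text, and p-values measure the spread between arrays. Replicate numbers do not pair arrays across groups.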

Additional observations from a re-analysis of the deposited data

Results flagged for a closer look

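Differences between mutants passed the test for 6 of the 35 members, which gave 11 called differences over 4 kinds of comparison. Shares of all genes are given above for each comparison, and none was counted for these totals. As log2 differences, gstk-2 had -1.52 (double mutant minus mes-2), -1.06 (mes-4 minus mes-2) and -1.45 (double mutant minus the sum of the single mutants). gst-38 had 3.85, 3.91 and 3.65 (double mutant minus mes-2, minus mes-4 and minus the sum). gst-5 had 0.77 (double mutant minus mes-2) and 0.695 (minus the sum), gst-43 had 1.01 (double mutant minus mes-2), gst-10 had -1.72 (mes-4 minus mes-2) and gst-36 had 1.14 (double mutant minus mes-4).

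Single arrays stood apart from the other 3 of their group in 5 of 98 groups of 4 arrays, by the gap to the nearest array as a share of the group's range (Dixon's test). That test passes about 1 in 20 groups by chance, and which of the 5 are chance cannot be told. These were mes-2 replicate 3 for gst-24 (0.20) and gst-36 (-0.31), mes-2 replicate 2 for gstk-2 (1.4), mes-4 replicate 3 for gst-30 (0.20) and mes-4 replicate 4 for gsto-1 (-0.53). The gstk-2 array lay on the side of the group's rise, and gstk-2 stayed called in mes-2 without it.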

How the results depend on the processing

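Counts of called members in mes-2 stayed within 1.5 times under the alternatives, and so did those of the double mutant except for 1 member (of 7) in a fit of its own arrays. In mes-4 (4 called) the count was 1 without the dye term. For the double mutant minus mes-4 (2 called) it was 1 without the dye term, with values on all 12 arrays, with arrays scaled to equal spread and without 3 arrays (replicates 1 and 4 of the double mutant and replicate 3 of mes-4), and 12 without double mutant replicates 2 and 3. For mes-4 minus mes-2 (2 called) it was 1 without the dye term, with genes on 2 or more arrays per group and with robust variance moderation, and 7 without the 3 arrays. For the double mutant minus mes-2 (4 called) it was 7 without the 3 arrays. For the departure from the sum (3 called) it was 5 with arrays centred on their median and 8 without double mutant replicates 2 and 3. The cause of these shifts was not tested. The mes-4 probe in the double mutant, -0.03 in the joint fit, was 0.55 without the 3 arrays (adjusted p = 0.0089).

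With a block for the replicate number, counts were 2 in mes-4 and 1 in each comparison of mes-4 with another mutant, and gst-5 in mes-2 had an adjusted p of 0.0805. Of the related lists, the UDP-glucuronosyltransferase count in mes-2 was 3 and the cytochrome P450 counts in mes-2 and mes-4 were 0 with the block. Neither the labels nor the data gave a pairing by number. Correlations of deviations between arrays of the same number ran from -0.473 to 0.54 with the dye effect removed. With the dye effect kept they ran from -0.674 to 0.327 and followed the dye orientation. Arrays of other numbers shared deviations too. With the dye effect removed, mes-4 replicate 3 correlated at 0.641 and 0.59 with double mutant replicates 4 and 1, and at -0.719 with replicate 2. The joint fit took arrays as independent, and what this sharing does to its p-values was not tested.

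Without 1 array at a time the counts ran from 3 to 4 in mes-2, 0 to 5 in mes-4 (0 without mes-4 replicate 4), 5 to 8 in the double mutant, 4 to 4, 1 to 3 and 1 to 2 for the double mutant minus mes-2, minus mes-4 and mes-4 minus mes-2, and 2 to 3 for the departure from the sum. The median member ran from 0.0666 to 0.1716, -0.065 to -0.0014 and 0.0147 to 0.1181 in the 3 mutants. Small ratios and members with missing values are the least certain, and with 4 arrays per group a missed threshold does not show that a member did not change.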
